A study of Mus musculus with 32 samples.

Results

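Abi3bp, Dpt and Msln are 3 genes for proteins of the extracellular matrix or the cell surface, taken by symbol from a table of 20560 genes measured in cultured mouse preadipocytes. They were picked from the values themselves. Dpt and Msln were among the largest falls in Zbtb9 knockdown cells on day 0, the start of fat cell differentiation, and Abi3bp was among the largest falls over all days. The difference between knockdown and control on day 0, and on every day for Abi3bp, is therefore given as a description with no test. All 3 genes passed the filter on low values in every comparison.

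Matrix proteins made by fibroblast-like cells hold a tissue together and present growth factors and adhesion sites to the cells, and preadipocytes rebuild their matrix as they turn into fat cells. Abi3bp encodes a secreted matrix protein that carries a binding site for the adaptor ABI3 and is linked to cell adhesion and senescence. Dpt encodes dermatopontin, a small matrix protein that binds decorin and TGF-beta and helps collagen fibrils form, and it is widely used as a marker of fibroblasts. Msln encodes mesothelin, a glycoprotein anchored to the cell surface that is typical of mesothelial cells and binds the mucin MUC16. Zbtb9, the gene that was knocked down, encodes a zinc finger protein with a BTB domain.

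RNA was sequenced from 3T3-L1 cells, an established mouse preadipocyte line, on days 0, 3, 7 and 11 of differentiation. On each day there were 4 libraries of cells with a scramble shRNA (shCtrl, genotype given as WT) and 4 of Zbtb9 knockdown cells, 2 with each of 2 short hairpin RNAs (shRNA 1 and shRNA 2). Induction medium with dexamethasone, isobutylmethylxanthine and insulin was given from day 0 in both arms, insulin alone from day 3, and no addition from day 7. How the shRNAs were delivered, and whether a culture was a pool or a clone, is not given in the sources used here. The labels call the replicates biological and name no batch. P-values measure only the spread between such libraries.

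The table gives log2 values, and the reads behind them could be rebuilt to whole numbers, with 22280363 to 31073726 reads in genes per library. Normalized reads below are these reads corrected for each library's size factor. Log2 differences and adjusted p-values come from limma on the deposited values, and a gene is called at an adjusted p under 0.05. How many of all genes had groups that did not overlap was not counted, so nothing is read from such gaps. Of the fat cell markers tested, 9 of 9 were called higher at day 7 than at day 0 in control cells, when 69.1% of all genes were called, with a summed level of 19720 to 20320 normalized reads at day 0 and 48680 to 52800 at day 7. In knockdown cells the same list summed to 129400 to 199600 at day 7. These are bulk samples, in which fewer cells of a type and less RNA per cell cannot be told apart.

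Zbtb9 itself was covered by at most 23 reads per library, which limits the check of the knockdown. Knockdown libraries had 61.9%, 50.6%, 42.7% and 54.5% of the control mean on days 0, 3, 7 and 11. The ranges of the arms overlapped on days 3 and 11. The log2 difference was -0.21 at day 0 (limma adjusted p 0.271), -0.35 at day 7 (0.0288) and -0.28 at day 11 (0.173), so that with the hairpins pooled day 7 alone passed the test, and at day 3 Zbtb9 was under the filter. Against control, neither hairpin alone passed at day 7 (limma adjusted p 0.107 for shRNA 1 and 0.0714 for shRNA 2), and shRNA 2 passed at day 11 (-0.49, 0.0228). At day 11 the libraries labelled shRNA 1 had 88.5% of the control mean and those labelled shRNA 2 had 20.5%. The log2 difference between the hairpins for Zbtb9 at day 11 was -0.42 (limma adjusted p 0.12).

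Abi3bp (ENSMUSG00000035258) occupies positions 56477878 to 56690135 of chromosome 16 (plus strand, GRCm38), with 59 separate exon blocks and 7416 exon bases, none of them shared with another annotated gene. Its transcript was lower in all knockdown libraries than in all control libraries on each of the 4 days. At day 0 the controls had 5640, 6287, 5759 and 6531 normalized reads, the shRNA 1 libraries 3919 and 3852, and the shRNA 2 libraries 4473 and 4407. The knockdown mean was 68.8% of the control mean, a log2 difference of -0.52. Among 322 genes called lower at day 0, which is 2.44% of 13216 genes tested (3.25% were called in either direction), Abi3bp ranked 83, between A330074K22Rik (-0.52) and Cldn15 (-0.51). That contrast chose the genes, and nothing is read from the rank.

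As a share of control, Abi3bp was lower on the later days than at day 0. At day 3 controls had 2487, 2686, 2704 and 3071 normalized reads, against 1490 and 1216 with shRNA 1 and 1609 and 1484 with shRNA 2. At day 7 controls had 3115, 3196, 3325 and 3048, against 1291 and 1155 with shRNA 1 and 1609 and 1625 with shRNA 2. In each case the highest knockdown library lay well under the lowest control. At day 11 controls had 2638, 2336, 2108 and 2153 normalized reads, against 743.4 and 459.9 with shRNA 1 and 1419 and 1142 with shRNA 2. Both shRNA 1 libraries were below both shRNA 2 libraries. The knockdown mean was 53.0%, 44.8% and 40.8% of control on days 3, 7 and 11, with log2 differences of -0.88, -1.13 and -1.35. With shRNA 1 the shares were 49.4%, 38.6% and 26.1%, and with shRNA 2 they were 56.5%, 51.0% and 55.5%. The steady decline over these days was thus seen with shRNA 1 alone. Called lower on all 4 days were 63 of 12977 genes (0.485%), among which Abi3bp had the second largest median fall (-1.005), after Cxcl5 (-1.22) and before Rapgef3 (-0.94). These values chose the gene, so its place among them is a description from which nothing is read.

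**Figure D1:**
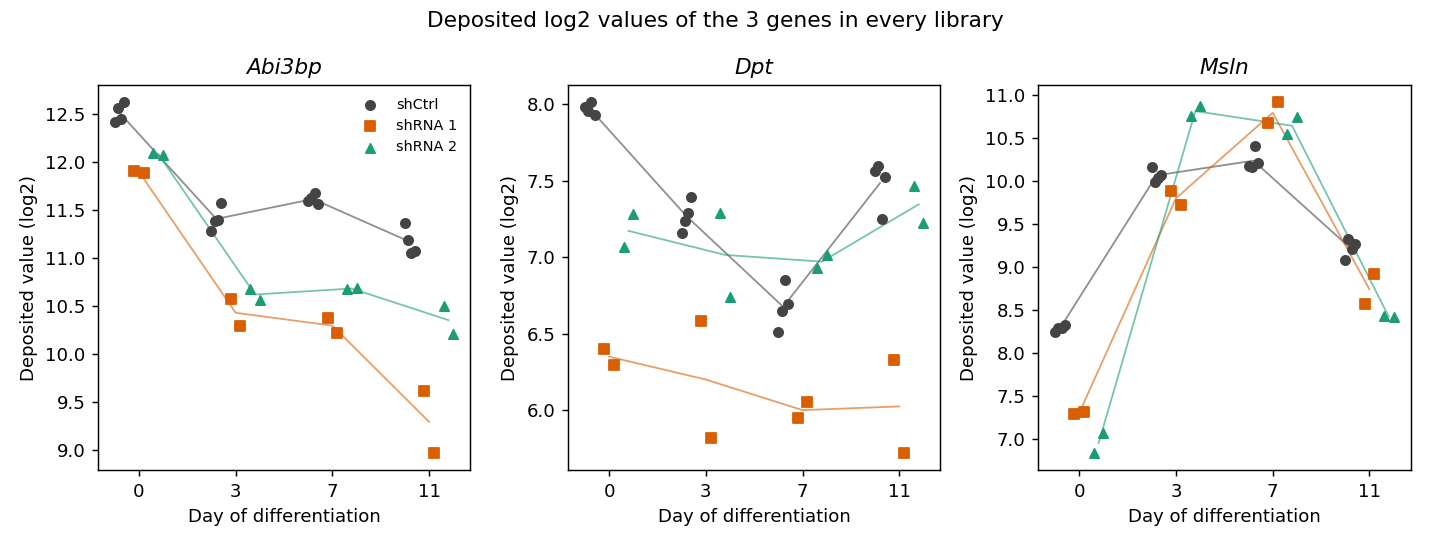
Deposited log2 values (vertical axis) of Abi3bp, Dpt and Msln in each of 32 libraries by day of differentiation (days drawn at equal spacing); circles are shCtrl, squares shRNA 1 and triangles shRNA 2, and lines join group means. Abi3bp was lower with both shRNAs on each day, Dpt stayed low with shRNA 1, and Msln crossed the control level between days 0 and 7.

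Dpt (ENSMUSG00000026574) occupies positions 164796644 to 164824266 of chromosome 1 (plus strand, GRCm38), with 4 exon blocks and 1724 exon bases. An antisense gene, Gm32569, overlaps it on the opposite strand without sharing an exon base. The 250 bases before its RefSeq start site (RefSeq, GRCm38.p6, chr1:164796413-164796662, plus strand, the last bases of which lie inside the GENCODE gene) are printed here because Dpt had the largest fall of all genes at day 0. The capitals mark the match to TTNNGCAA, a motif like that of C/EBP factors, which drive fat cell differentiation.
Dpt: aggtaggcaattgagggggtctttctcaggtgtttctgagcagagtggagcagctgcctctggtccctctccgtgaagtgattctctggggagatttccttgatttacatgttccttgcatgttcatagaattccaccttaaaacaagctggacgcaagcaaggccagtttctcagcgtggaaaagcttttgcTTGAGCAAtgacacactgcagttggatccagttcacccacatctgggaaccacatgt
The match began 57 bases before the start site, and 9.56% of 32851 windows of this length held at least 1 such match on either strand. E-box letters, CANNTG, occurred 6 times, against at least once in 66.22% of windows. No match was found for TATAAA (12.37% of windows), CCAAT (33.85%), the glucocorticoid receptor half-site AGAACA (16.08%) or the AP-1 site TGANTCA (6.75%), each searched on both strands. The motifs were chosen after the sequence had been seen, and a match of letters is not evidence of binding. Of the 3 genes, Dpt had an entry in the promoter table, while Abi3bp and Msln did not.

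At day 0 Dpt had 287.1, 282.3, 294.6 and 276 normalized reads in the controls, 75.8 and 69.05 with shRNA 1, and 135.3 and 162.3 with shRNA 2. The groups did not overlap, and the hairpins were also apart from each other. The knockdown mean was 38.8% of control. The log2 difference was -1.21, beside -1.16 for Msln and -1.08 for Steap4, the next in size. Size at day 0 chose Dpt and Msln, and nothing is read from this order.

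After induction Dpt was low with 1 of the 2 hairpins. At day 3 the controls had 146.2, 156.5, 163.3 and 178.6 normalized reads, shRNA 1 had 88.58 and 42.32, and shRNA 2 had 163.9 and 102.1. At day 7 the controls had 83.64, 94.32, 112.6 and 98.15, shRNA 1 had 48.71 and 53.36, and shRNA 2 had 120.6 and 129.6. The shRNA 1 libraries lay below all controls on both days, whereas shRNA 2 overlapped the controls at day 3 and lay above all of them at day 7. At day 11 the controls had 205, 210.2, 157.7 and 198.8, shRNA 1 had 70.46 and 37.47, and shRNA 2 had 189.2 and 155.2. As a share of the control mean, shRNA 1 gave 40.6%, 52.5% and 28.0% on days 3, 7 and 11, and shRNA 2 gave 82.5%, 128.7% and 89.3%.

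With both hairpins in 1 group, Dpt did not pass the test on days 3, 7 or 11. The log2 difference was -0.66 ± 0.26 (SE) at day 3 (limma adjusted p 0.0979), -0.19 ± 0.23 at day 7 (0.532) and -0.80 ± 0.36 at day 11 (0.129), where 26.7%, 47.6% and 33.0% of all genes were called. With shRNA 1 alone Dpt fell on all 3 days, with log2 differences of -1.07 ± 0.17 (limma adjusted p 2.47e-05), -0.68 ± 0.14 (0.000164) and -1.46 ± 0.16 (1.26e-06) in order of day, and with 39.4%, 52.0% and 43.6% of genes called. For shRNA 2 the differences were -0.25 (0.291), 0.30 (0.0805) and -0.14 (0.533), with 31.4%, 46.0% and 36.9% of genes called. Without shRNA 1 replicate 2 the day 3 fall with shRNA 1 was -0.69 (adjusted p 0.00284). Without shRNA 2 replicate 1 the pooled difference was -0.89 at day 3 (0.00485) and -1.06 at day 11 (0.0316). Without shRNA 1 replicate 2 the pooled difference was -0.40 at day 3 (limma adjusted p 0.0664) and -0.48 at day 11 (0.165). With the hairpins as separate groups it was called on both days (0.000559 and 8.39e-05). Leaving out single libraries of day 7 gave pooled differences from -0.37 to -0.011. Without control replicate 3 the day 7 difference with shRNA 2 was 0.35 (0.0429).

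Msln (ENSMUSG00000063011) occupies positions 25748613 to 25754378 of chromosome 17 (minus strand, GRCm38), with 15 exon blocks and 3064 exon bases that no other annotated gene shares. A stretch of at most 170 bases of its transcripts matched 424 other genes at 90% identity or more, so some of its reads could be placed in several genes, while Abi3bp and Dpt matched none over 100 bases. At day 0 Msln had 285.4, 296.5, 295.6 and 305 normalized reads in the controls, 135.9 and 138.1 with shRNA 1, and 93.1 and 112.2 with shRNA 2. All knockdown libraries were under the controls by a wide margin. The mean was 40.5% of control and the log2 difference -1.16.

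By day 3 this had turned with shRNA 2. The controls had 1190, 1044, 1079 and 1112 normalized reads, shRNA 1 had 964.2 and 857, and shRNA 2 had 1826 and 1988. Both shRNA 2 libraries were above, and both shRNA 1 libraries below, all controls. Msln fell by 0.27 on the log2 scale with shRNA 1 (limma adjusted p 0.000965) and rose by 0.75 with shRNA 2 (1.49e-11), and the pooled difference of 0.24 ± 0.28 did not pass the test (0.585). Of all genes, 39.4% were called with shRNA 1, 31.4% with shRNA 2 and 26.7% pooled. Leaving out single libraries gave pooled differences from 0.052 to 0.44. The fall with shRNA 1 lost its call without replicate 2 of that shRNA (-0.19, adjusted p 0.0814).

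At day 7 Msln was higher with both hairpins. The controls had 1196, 1186, 1413 and 1224 normalized reads, shRNA 1 had 1721 and 2051, and shRNA 2 had 1567 and 1807. Every knockdown library exceeded every control. The pooled log2 difference was 0.48 ± 0.08 (limma adjusted p 0.000102). With shRNA 1 alone it was 0.56 (1.71e-06) and with shRNA 2 alone 0.41 (0.000129). Such calls were common at day 7, with 47.6% of all genes called pooled, 52.0% with shRNA 1 and 46.0% with shRNA 2.

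At day 11 Msln was again lower in the knockdown. The controls had 536.9, 643.8, 590.1 and 613 normalized reads, shRNA 1 had 365.6 and 472.4, and shRNA 2 had 327.5 and 326.3. No knockdown library reached the lowest control. The pooled log2 difference was -0.64 ± 0.11 (limma adjusted p 0.000929), with -0.48 for shRNA 1 (0.000711) and -0.80 for shRNA 2 (7.43e-06). Of all genes, 33.0% were called pooled, 43.6% with shRNA 1 and 36.9% with shRNA 2. Leaving out shRNA 1 replicate 1 moved the value for that shRNA to -0.31 (0.0305).

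Whether the knockdown difference itself changed between days was tested in 1 model of all 32 libraries, leaving out day 0. For Msln the difference was lower at day 11 than at day 7 by -1.12 ± 0.24 on the log2 scale (limma adjusted p 0.00226, where 12.7% of genes were called) and lower at day 11 than at day 3 by -0.88 ± 0.24 (0.00895, 22.0% of genes). Between days 3 and 7 it was 0.24 ± 0.24 (0.519, 23.1% of genes). For Dpt none of the 3 contrasts passed, with 0.47 ± 0.44 (0.484), -0.61 (0.408) and -0.14 (0.861) in the order day 7 against 3, 11 against 7 and 11 against 3. Leaving out single libraries moved them from 0.21 to 0.70, from -0.87 to -0.29 and from -0.40 to 0.18.

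**Figure D2:**
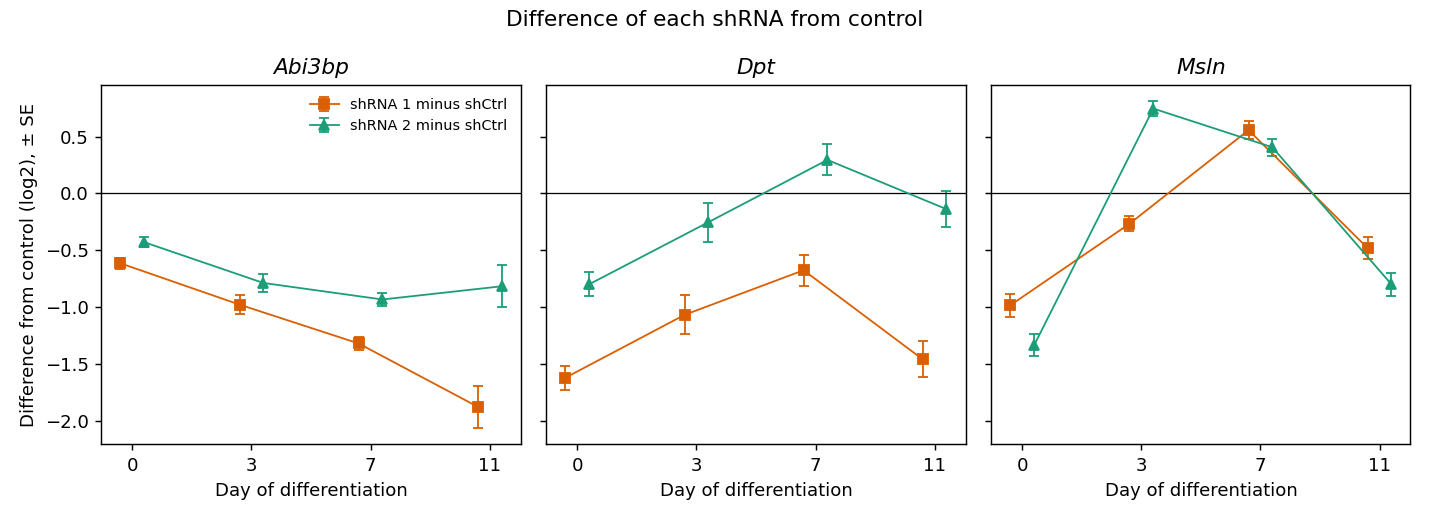
Log2 difference from control (vertical axis, ± SE from limma) of each shRNA on each day, for the 3 genes; squares are shRNA 1 and triangles shRNA 2, with 2 libraries per shRNA and 4 controls per day. For Dpt the shRNA 2 points lie about 0.8 to 1.3 above those of shRNA 1, and for Msln both hairpins pass from below 0 at day 0 to above 0 at day 7 and back below at day 11.

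The choice of genes pooled the hairpins and did not use the contrast between them. It did use the same libraries of day 0, and for Abi3bp those of all days. Hairpin tests on those days are therefore not independent of the choice. Dpt was higher with shRNA 2 than with shRNA 1 on all 4 days, by 0.82 ± 0.12 at day 0 (limma adjusted p 4.67e-06), 0.82 ± 0.20 at day 3 (0.00461), 0.97 ± 0.16 at day 7 (0.000101) and 1.32 ± 0.18 at day 11 (0.000108). Of all genes, 35.0%, 19.6%, 16.4% and 22.0% were called between the hairpins on these days, so such calls were common. Leaving out shRNA 1 replicate 2 ended the day 3 call (0.44, adjusted p 0.15), as did leaving out shRNA 2 replicate 1 (0.54, 0.0869), using no filter (0.087) or using neither the variance trend nor robust fitting (0.0798).

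Abi3bp was also less reduced with shRNA 2. The hairpins differed by 0.19 ± 0.05 at day 0 (limma adjusted p 0.00859), 0.39 ± 0.07 at day 7 (0.00015) and 1.06 ± 0.21 at day 11 (0.0133), and by 0.19 ± 0.09 at day 3 (0.191). At day 0 the call was lost without replicate 2 of shRNA 1 (0.17, 0.0722), without shRNA 2 replicate 1 (0.18, 0.0682), with no filter (0.061) or with neither trend nor robust fitting (0.102). At day 11 it was lost without replicate 1 of shRNA 2 (0.91, 0.0724), and the day 3 difference was called without shRNA 1 replicate 1 (0.33, 0.00791).

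For Msln the order of the hairpins was not the same on all days. It was lower with shRNA 2 at day 0 (-0.35 ± 0.12, limma adjusted p 0.0179), higher at day 3 (1.01 ± 0.07, 6.88e-13), and did not pass at day 7 (-0.15, 0.276) or day 11 (-0.32, 0.0531). At day 0 the call was lost without replicate 1 of shRNA 1 (-0.36, 0.0648), shRNA 1 replicate 2 (-0.34, 0.0755) or shRNA 2 replicate 1 (-0.24, 0.207), and under voom on rebuilt reads (-0.42, 0.0698). At day 11 the difference was called without shRNA 1 replicate 1 (-0.49, 0.00608). Beside these values stand those of the target. Zbtb9 was at 53.8%, 36.1%, 45.9% and 88.5% of the control mean with shRNA 1 on days 0, 3, 7 and 11, and at 70.0%, 65.2%, 39.6% and 20.5% with shRNA 2. In the means Zbtb9 was lower with shRNA 1 on days 0 and 3 and higher on days 7 and 11. None of its tested hairpin differences passed (limma adjusted p 0.706, 0.906 and 0.12 on days 0, 7 and 11). At day 3 Zbtb9 was under the filter, so its order between hairpins is not established. Dpt and Abi3bp were lower with shRNA 1 in the means of every day. The part of knockdown depth in the difference between hairpins was not tested.

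In control cells the 3 genes took different courses. Changes from day 0 use control libraries that entered the choice of genes, so they are given with no test. Abi3bp was lower than at day 0 on all later days, with log2 differences of -1.11, -0.90 and -1.34 on days 3, 7 and 11, and so was Dpt, with -0.70, -1.30 and -0.49. Msln was higher by 1.78, 1.95 and 0.94. Per kilobase of exon, control cells had 816 normalized reads of Abi3bp, 165 of Dpt and 96.5 of Msln at day 0, and 428, 56.4 and 410 at day 7.

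Between the later days the controls could be tested for Dpt and Msln, whose choice used day 0 alone. From day 3 to day 7 Msln rose by 0.17 ± 0.06 (limma adjusted p 0.0129) and Dpt fell by 0.59 on the log2 scale (1.27e-06), where 74.2% of genes were called. From day 7 to day 11 Dpt rose by 0.81 ± 0.10 (7.32e-09), while Msln fell by 1.01 (4.71e-16), where 55.0% of genes were called. In 1 model of all 32 libraries the day 3 to 7 changes lost their calls (adjusted p 0.384 for Msln and 0.0908 for Dpt). The Msln rise was also lost without control replicate 2 of day 3 (0.14, 0.0508) or replicate 3 of day 7 (0.11, 0.096). For Abi3bp, whose choice used all days, the 2 differences were 0.21 and -0.45, with no test.

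In knockdown cells too Abi3bp was lower, and Msln higher, than at day 0 on the later days. Against day 0 of the same arm, with no test, Abi3bp was lower by -1.47, -1.50 and -2.17 on days 3, 7 and 11, and Msln was higher by 3.18, 3.59 and 1.45. Dpt showed -0.15, -0.28 and -0.08, beside -0.70, -1.30 and -0.49 in controls. Dpt and Msln were picked for low knockdown values at day 0, which enter these changes and their gap from controls. Between days 7 and 11 Msln fell by 2.14 on the log2 scale in the knockdown (limma adjusted p 1.22e-05, where 55.2% of genes were called). The changes of Dpt (0.20, 0.338) over that interval and of Msln (0.41, 0.154) and Dpt (-0.12, 0.537) from day 3 to 7, where 71.6% of genes were called, did not pass. Without shRNA 2 replicate 2 of day 3 the last Msln change was 0.61 (0.0324).

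**Figure D3:**
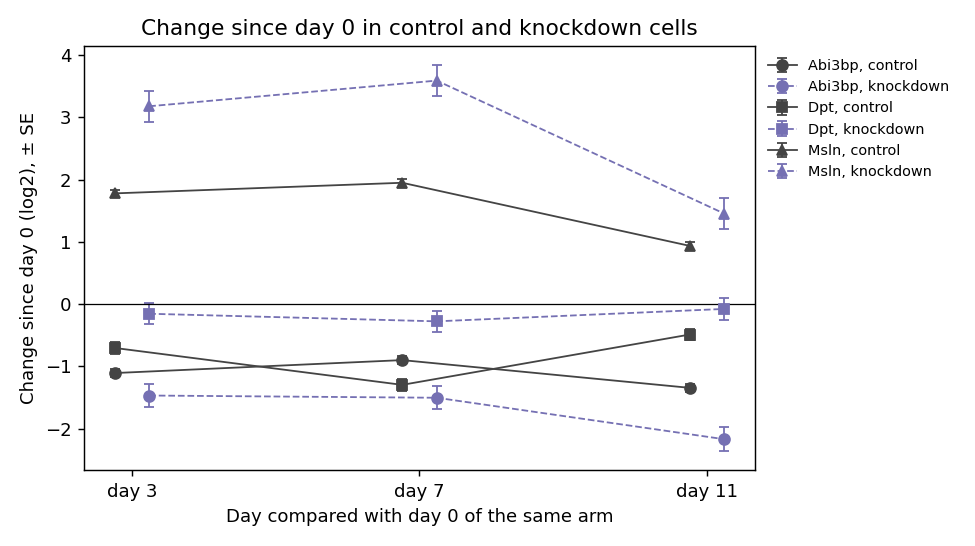
Change since day 0 of the same arm (vertical axis, log2 ± SE from limma) on days 3, 7 and 11; solid grey lines are 16 control libraries and dashed violet lines 16 knockdown libraries, with circles for Abi3bp, squares for Dpt and triangles for Msln. Msln reached 3.59 above its day 0 level in knockdown cells against 1.95 in controls at day 7, and Dpt stayed within 0.28 of its day 0 level in knockdown cells. Both genes were picked for low knockdown values at day 0, which enter these changes.

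Ordered by their mean log2 values over the 12 groups of shRNA and day, Abi3bp was highest in controls at day 0 (12.51) and lowest with shRNA 1 at day 11 (9.29). The 3 groups of day 0 stood apart from one another and above all others, whereas the libraries of the control groups of days 7 and 3 overlapped with the next in order. The control group of day 11 stood apart from all knockdown groups of the later days below it. Dpt ran from 7.97 in controls at day 0 to 6.0 with shRNA 1 at day 7. The 4 shRNA 1 groups were the lowest, and each overlapped with the next among them. Controls at day 7 stood apart from the groups just above and just below them, while the groups from controls at day 11 down to shRNA 2 at day 7 overlapped each with the next. Msln ran from 10.81 with shRNA 2 at day 3 to 6.95 with shRNA 2 at day 0. Its top 3 groups, shRNA 2 at day 3 and both hairpins at day 7, overlapped with one another in order and stood apart from controls at day 7, the next group.

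The lists described next were chosen with earlier results of these data known, and the members are in none of them. Of 32 tested matrix glycoproteins, 7 were called lower and 1 higher in the knockdown at day 0, with a median log2 difference of -0.24, where all genes had 322 lower and 108 higher calls and a median of -0.01. On days 3, 7 and 11 all genes had 1588, 3011 and 2155 lower calls, 1918, 3317 and 2227 higher calls, and medians of 0.00, 0.01 and -0.01. Without any 1 of the 4 controls the day 0 calls over all genes numbered 111 to 157 in place of 430, and without shRNA 1 replicate 2 they numbered 250. With a replicate block there were 0 calls at day 0, so every day 0 call in this and the following lists ended there. The share of all day 0 calls that were higher was 25.1%, or 43.3% after scaling to equal totals. Ecm1, a matrix protein of skin and vessels, had the largest fall among called genes (-0.47, limma adjusted p 0.000749), and Fbln5, which organizes elastic fibres, the largest rise (0.27, 0.0149). On days 3, 7 and 11 the list had 9, 14 and 9 falls and 2, 5 and 4 rises among 30, 31 and 31 genes tested, with medians of -0.10, -0.20 and -0.14. The largest called falls were those of Thbs1 at day 3 (-0.71, 0.000705), Mgp, an inhibitor of calcification, at day 7 (-1.24, 6.89e-10) and Thbs2 at day 11 (-1.13, 0.0044). Smoc1, a calcium-binding matrix protein, had the largest rise at day 7 (1.27, 4.63e-06). Fibronectin, Fn1, to which dermatopontin binds, did not pass on any day, with log2 differences of -0.01, -0.09, 0.08 and -0.04.

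Of 23 partners of dermatopontin and genes of collagen fibrils, 3 were called at day 0, each of them lower (list median -0.18), with the largest called fall in Loxl1, a crosslinking enzyme (-0.32, limma adjusted p 0.023). At days 3, 7 and 11 there were 6, 12 and 9 falls and 1, 4 and 4 rises among 22, 22 and 23 genes, with medians of -0.12, -0.20 and -0.295. Of all genes, 3.25%, 26.7%, 47.6% and 33.0% were called on days 0, 3, 7 and 11. Decorin, Dcn, the small proteoglycan to which dermatopontin binds, fell by 0.86 on the log2 scale at day 3 (limma adjusted p 0.0277), by 0.69 at day 7 (0.000668) and by 0.68 at day 11 (0.0488), with -0.69 at day 0 (0.0521). Its mean at day 0 was 21390 ± 312 normalized reads in controls (SD, n = 4), 10490 with shRNA 1 and 16330 with shRNA 2. Like Dpt it was lower with shRNA 1 than with shRNA 2 on each day in the means, with 11430 and 19920 at day 3, 12530 and 17380 at day 7, and 10370 and 18680 at day 11. Plod2, a lysyl hydroxylase, had the largest rise on days 3, 7 and 11 (0.27, 0.61 and 0.94; adjusted p 0.00253, 2.12e-06 and 0.00162). Fmod, a proteoglycan that binds collagen, had the largest fall on days 7 and 11 (-0.91 and -0.98; 0.00211 and 0.00707). Tnxb, a partner in fibril spacing, fell at day 7 (-0.17, 0.0422) and day 11 (-0.30, 0.00396).

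The TGF-beta list, a pathway to which dermatopontin is tied, had 2 calls among 18 genes at day 0, both falls (median -0.09). On days 3, 7 and 11 it had 2, 6 and 6 rises and 5, 6 and 1 falls, with medians of -0.03, -0.01 and 0.00. Of all genes, 3.25%, 26.7%, 47.6% and 33.0% were called on days 0, 3, 7 and 11. Tgfbr2, a receptor, had the larger of the called falls at day 0 (-0.24, limma adjusted p 0.0315). Tgfb1, a ligand, did not pass on any day (-0.06, -0.05, 0.00 and -0.06). Of genes tied to Abi3bp by binding or senescence, 1 of 10 was called at day 0, the cell cycle inhibitor Cdkn1a (-0.31, 0.0391), with a list median of -0.10. At day 3 the single call was a rise (Mdm2, 0.18, 0.00764), at day 7 there were 5 rises and 3 falls, and at day 11 there were 5 rises and 2 falls, with medians of 0.11, 0.05 and 0.10. Beside these counts stand the same shares over all genes as for the TGF-beta list. Abi3, the binding partner that gave Abi3bp its name, had 8 reads or fewer in every library of day 0. It rose in the knockdown by 0.85 at day 7 (limma adjusted p 0.00416) and 1.03 at day 11 (0.00168). Itgb1, an integrin chain, fell at days 3, 7 and 11 (-0.19, -0.44 and -0.33; 0.0267, 0.000346 and 0.009).

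Markers that share a cell type with Msln and Dpt gave the following values. Of 18 mesothelial markers 13 were in the table and 5 to 8 passed the filter per day, and their summed level at day 0 was 2159 to 2275 normalized reads in controls and 1691 to 2012 in the knockdown. At day 3 it was 1003 to 1135 in controls and 734.3 to 1446 in the knockdown, with overlap. At day 7 it was 1617 to 1860 in controls and 2774 to 3313 in the knockdown, and at day 11 the ranges overlapped (2340 to 2572 and 2133 to 2970). Defining markers were low, since Upk3b had 17 reads or fewer, Krt19 had 5 or fewer and Wt1 had 17 or fewer in every library of day 0. Upk3b had 6 or fewer on the later days. Wt1, a transcription factor, had at most 3 reads at day 3 and more at days 7 and 11, with 41.0 ± 10.5 normalized reads in controls and 32.04 ± 11.08 in the knockdown at day 7, and 62.0 ± 7.06 and 100.9 ± 44.25 at day 11 (SD, n = 4). The knockdown differences of Wt1 on these days were -0.22 (limma adjusted p 0.279) and 0.41 (0.139). The hairpins were unlike at day 11, with means of 139.0 normalized reads for shRNA 1 and 62.71 for shRNA 2. At day 0, 1 of 5 tested was called, a fall of Cldn15 (-0.51, limma adjusted p 0.00644). At day 3, 1 of 6 rose and 1 fell, at day 7, 4 of 8 rose and 1 fell, and at day 11, 2 of 7 rose and 3 fell. Of all genes, 3.25%, 26.7%, 47.6% and 33.0% were called on days 0, 3, 7 and 11. The list medians on the 4 days were -0.22, -0.09, 0.38 and 0.41. Krt8, a keratin, rose most at day 7 (3.50, 0.0119). Krt19 rose with it (2.19, 3.15e-05), from 26.4 ± 18.6 normalized reads in controls to 205.3 ± 65.3 in the knockdown at day 7 (SD, n = 4). Mslnl, the neighbour of Msln with a gap of 282 bases, had 19 reads or fewer in every library. The part of such cells in the Msln values was not tested.

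Fibroblast progenitor markers, among which Dpt is often counted, had 1 call among 11 tested at day 0, a fall of Clec3b (-0.68, limma adjusted p 0.0099), with a list median of -0.31. At day 3 the 3 calls were falls, at day 7 there were 8 falls and 1 rise, and at day 11 there were 6 falls and 1 rise, with medians of -0.25, -0.50 and -0.46. Over all genes 3.25% were called at day 0, and 26.7%, 47.6% and 33.0% on days 3, 7 and 11. Fat cell markers rose in the knockdown on days 3, 7 and 11, in 9 of 9, 9 of 9 and 8 of 9 tested, with medians of 0.90, 1.66 and 1.65. Of the fibroblast markers, Ly6c1 (-0.88, limma adjusted p 9.75e-06), Pdgfra (-1.03, 1.6e-05) and Sema3c (-0.99, 0.0001) had the largest falls on these days, and Col15a1 rose at days 7 and 11 (1.11 and 1.40; 0.000114 and 4.42e-05). Pi16, a marker of the most immature fibroblasts, fell at day 7 (-0.57, 0.00647) and did not pass on the other days (-0.44 at day 0, adjusted p 0.282). Cd34, another progenitor marker, had 19 reads or fewer in every library. The summed level of the list was 51640 to 54330 normalized reads in controls and 40770 to 53200 in the knockdown at day 0, and 28250 to 29540 against 17770 to 19370 at day 7. The 5 tested markers of blood, vessel, epithelial and muscle cells had log2 differences from -0.43 to 0.24 at day 0. At day 3, 1 of 5 fell, the smooth muscle actin Acta2 (-0.64, limma adjusted p 6.12e-05). At day 7, 2 of 5 were called, both rises, the larger in the macrophage marker Cd68 (0.87, 0.000189). At day 11, 2 rose, again with the larger value in Cd68 (0.86, 0.0284), and Acta2 fell (-0.77, 0.0237). The part of such shifts in the values of the 3 genes was not tested.

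The genes whose log2 values ran most like those of each member over the 32 libraries were found among 13571 genes, as a description. For Abi3bp they were AW551984 (Pearson r 0.966), Nek8 (0.955), Arhgef25 (0.945), Lurap1l (0.940) and Dock1 (0.938). For Dpt they were Cdon (0.887), Col3a1 (0.864), which encodes a fibril collagen, Ppp1r21 (0.859) and Thtpa (0.814). For Msln they were Pck2 (0.945), Trap1 (0.932), Bcs1l (0.930), Lcn2 (0.929) and Sra1 (0.928). The libraries share days and arms, and the residuals from the group means correlated far less, from 0.02 for Sra1 to 0.67 for Dock1. Among the members, r was 0.63 for Abi3bp and Dpt, -0.41 for Abi3bp and Msln, and -0.25 for Dpt and Msln. For Dpt and Msln it was -0.89 in the 16 control libraries and -0.17 in the 16 knockdown libraries. As residuals from the group means, the 3 pairs in the same order had r of 0.71, -0.38 and 0.01.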

How the data were processed

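Per the submitters' processing notes, TopHat2 2.1.0, Bowtie2 2.2.6, SAMtools 1.3.1 and HTSeq 0.6.1 were used. The genome build, annotation and use of strand are not given in the sources used here. The authors deposited 1 log2 value per gene and library, with the form of a regularized log transform, which understates differences of genes with few reads. Inverting it gave 99.31% of values within 0.1 of a whole read (20% by chance), and on simulated reads all were rebuilt. Reads carried no molecular identifiers, so depth covers counting error only.

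Differences were tested with limma 3.58.1 in R 4.3.3 (trend, robust, Benjamini-Hochberg over all genes) on the deposited values, for genes with 2 to the power of the value of at least 10 in at least 4 libraries. On simulated data with 200 genes changed by 1 on the log2 scale, 96.5% to 97.5% were recovered per day among 13155 to 13307 genes, with 5.34% to 8.88% of calls false. Both hairpins were simulated with the same level and change, and only genes above a minimum level were changed. These rates therefore do not cover genes with few reads or genes that differ between hairpins, as many did here. Each shRNA against control was added after the data were seen.

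The members and lists were chosen with earlier results of these data known. Named are the members, Zbtb9, 5 genes most like each member (predicted genes aside), the largest called rise and fall of each list, the neighbours in rank of each member at day 0 and 13 preset genes, of which Muc16 was not analysed here; some genes that this rule names are not reported here; Gm32569, Cxcl5 and Rapgef3 were named after their values or positions were seen. Positions come from GENCODE M21 (GRCm38) and similar sequence from blastn 2.17.0. Alternatives were pseudocounts of 1 and 10, other filters, scalings and fits, reads rebuilt, a replicate block, and each library left out.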

Additional observations from a re-analysis of the deposited data

Results flagged for a closer look

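Of 12 contrasts between hairpins for the 3 genes and 6 between the knockdown differences of 2 days for Dpt and Msln, 11 passed the test. The libraries of day 0, and for Abi3bp those of all days, had also entered the choice of genes. Of all genes, 16.4% to 35.0% were called between hairpins and 12.7% to 23.1% between days. Values are log2 differences with limma adjusted p under 0.05. The hairpins differed for Dpt on all days, in order by 0.82, 0.82, 0.97 and 1.32, each time with more transcript under shRNA 2. For Abi3bp, in the same direction, day 0 gave 0.19, day 7 gave 0.39 and day 11 gave 1.06. For Msln the hairpin difference was -0.35 at day 0 and 1.01 at day 3, in opposite directions.

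The knockdown difference of Msln was lower at day 11 than at day 7 by -1.12 and lower at day 11 than at day 3 by -0.88. In 24 groups of 4 libraries no library of the 3 genes stood far from the other 3 by Dixon's test, although the 4 knockdown libraries of a day mix 2 hairpins.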

How the results depend on the processing

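Of 800 values with a test under alternatives, 763 kept their direction and side of the threshold, 18 lost and 15 gained a call, and 4 changed sign; none of the sign changes was a called value, and the cause of the changes was not tested. In the count of genes called for knockdown at day 0 (430), leaving out both trend and robust fitting gave 261, separate hairpins 3340 and the replicate block 0 by limma, with 1067 genes at an unadjusted p under 0.05. With separate hairpins day 3 had 5311 (3506). The replicate block gave 845 at day 3, 4112 at day 7 (6328) and 1652 at day 11 (4382). Same-numbered libraries deviated together with r from -0.09 to 0.21. Between groups of the same day the median r for the same number was 0.04, 0.04, 0.04 and 0.11 on days 0, 3, 7 and 11. For other numbers it was -0.02, -0.02, 0 and -0.05. Whether same-numbered libraries shared a batch was not tested. With the block Abi3bp was called between hairpins at day 3 (0.19), Msln at day 11 (-0.32) and Dpt with shRNA 2 at day 7 (0.39). Without trend and robust fitting there were 1206 for shRNA 2 at day 0 (2323) and, between hairpins, 1454 at day 3 (2572), 1035 at day 7 (2183), 0.19 for Abi3bp at day 0, 0.82 for Dpt at day 3, and 0.30 for Dpt with shRNA 2 at day 7 (adjusted p 0.0314). No filter gave 1710 at day 3, 0.19 for Abi3bp and 0.82 for Dpt. The 4 shRNA libraries alone gave 1868 at day 11 (2916). Median centring gave -0.35 for Msln between hairpins at day 11 (0.0378), and voom -0.42 at day 0. Separate hairpins gave -0.66 for Dpt and 0.24 for Msln at day 3 and -0.80 for Dpt at day 11, which 1 fit of 32 libraries also called (0.0411). That fit gave -0.59 for Dpt and 0.17 for Msln in controls from day 3 to 7, neither called. Voom turned Dpt in the knockdown, day 11 against 0, to 0.0080.

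Leaving out single libraries gave 111 to 562 calls for knockdown at day 0, 946 to 2665 for shRNA 2 at day 0, and 1633 to 2329, 1003 to 1492 and 1479 to 2928 between hairpins on days 3, 7 and 11. The day 0 count fell to 129, 115, 111 and 157 without control replicates 1 to 4 and 250 without shRNA 1 replicate 2. Between hairpins Msln ranged from -0.46 to -0.24 at day 0 and -0.49 to -0.15 at day 11, Abi3bp from 0.17 to 0.20 at day 0, 0.050 to 0.33 at day 3 and 0.74 to 1.38 at day 11, and Dpt from 0.44 to 1.20 at day 3. Against control, Dpt ranged from -0.89 to -0.40 at day 3 and -1.06 to -0.48 at day 11 pooled, and with shRNA 2 from -0.53 to 0.024 at day 3 and 0.24 to 0.35 at day 7. Msln ranged from -0.35 to -0.19 with shRNA 1 at day 3 and 0.11 to 0.20 in controls from day 3 to 7. In the knockdown from day 3 to 7, Abi3bp ranged from -0.10 to 0.064, Dpt from -0.25 to 0.047 and Msln from 0.21 to 0.61. Dpt ranged from -0.18 to 0.10 for day 11 against 0, and its difference of effect between days 11 and 3 from -0.40 to 0.18, with signs turned by shRNA 1 day 3 replicate 1 (0.064 and 0.047), shRNA 2 day 3 replicates 1 (0.09) and 2 (0.024), and shRNA 1 day 11 replicate 2 (0.10 and 0.18). With equal totals the median change since day 0 over all genes was -0.152 to -0.1 in the knockdown and -0.124 to -0.041 in controls.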
